A study of Rattus norvegicus with 12 samples.

Results

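AMPA receptors are the ion channels that carry most fast excitatory transmission between neurons of the hippocampus. Each receptor is an assembly of pore-forming subunits encoded by Gria1, Gria2, Gria3 and Gria4, joined by auxiliary subunits and held at the synapse by scaffold proteins. The subunit encoded by Gria2 limits the calcium permeability of the channel, and the number of receptors at a synapse is a main substrate of synaptic plasticity. The members described here were the array probes whose platform gene symbol was Gria1, Gria2, Gria3 or Gria4, which gave 3 of the 22523 probes, for 3 of the 4 genes. Gria2, Gria3 and Gria4 had 1 probe each (ILMN_1356417, ILMN_1368538 and ILMN_1371769). No probe carried the symbol Gria1, which was not analysed here.

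Transcripts were measured on Illumina RatRef-12 expression bead arrays in hippocampal neurons from embryonic day 18.5 Sprague-Dawley rats, grown for 12 days over a glial feeder layer, with 3 coverslips pooled per sample. All cultures were first held for 3 h in an inhibitory cocktail that blocks NMDA receptors (APV at 50 µM), sodium channels (TTX at 100 nM) and the AMPA and kainate receptors themselves (CNQX at 40 µM). Block cultures stayed in the cocktail. In Activity cultures the cocktail was washed out and 50 µM bicuculline and 500 µM 4-aminopyridine (BiC/4-AP) were added for 5 min. This releases synaptic firing, and for the later harvests the medium was then replaced by fresh medium without BiC/4-AP. Both were run with DMSO or with 25 µM actinomycin D (Block+ActD and Activity+ActD). Actinomycin D inhibits transcription, and cultures were already exposed to it before the stimulus. RNA was harvested at 5 min, at the end of the stimulus, or at 30 or 60 min after it. Each of these 12 groups held 1 array, so that no group had replicates, and the sources do not say whether cultures came from separate preparations. The harvests of a treatment therefore stood in for replicates in the tests of treatments, and the treatments stood in for replicates in the tests of harvests. The p-values rest on that spread, which may be technical.

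The arrays had total intensities from 10858200 to 13824800, and 9751 to 11032 probes per array were detected (detection p under 0.01, against the negative controls). The first principal component (69.1% of the variance) separated the 5 min harvest, with scores of -59.1 to -22.6 on its 4 arrays, from the 8 later arrays, with 13.2 to 31.3. All 16 neuron markers were detected on 2 or more arrays. Gad2 was not detected in Block+ActD at 5 min, where it read 60 against a lowest detected signal of 79.4. Their summed intensity was 61469.3 to 75013 at 5 min, 75145.5 to 85549.9 at 30 min and 69579.6 to 77280.2 at 60 min. The summed astrocyte markers ran from 53567.2 to 64880.6 at 5 min, from 44939.2 to 49416.7 at 30 min and from 44418.8 to 48793.2 at 60 min (Gjb6 was detected on no array). The summed microglia markers ran from 1533.4 to 2054.2 at 5 min, from 630 to 722.5 at 30 min and from 538.9 to 601.3 at 60 min (C1qc and P2ry12 were detected on no array). The sums include background and are not scaled to the total intensity of each array. After normalization the 7 tested astrocyte markers had a median log2 difference of 0.02 between the later harvests and 5 min. Of these, 3 were called higher and 2 lower. C1qa, C1qb and Tyrobp were not detected on any of the 8 later arrays. In such bulk RNA, fewer cells of a type and less RNA per cell cannot be told apart.

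Gria2 was detected far above background on every array and rose more than any other tested transcript between 5 min and the later harvests. Gria3 was detected close to the limit of the arrays, and Gria4 was not detected on any array. In Block cultures the Gria2 probe read an intensity of 1369.8 at 5 min, 3606.8 at 30 min and 3998.6 at 60 min. In Activity cultures it read 855.8, 3280.3 and 2594.1 at the same harvests. In Block+ActD it read 303.1, 3017.7 and 1892.4, and in Activity+ActD it read 380.2, 3687.9 and 3214.2. The 4 arrays of 5 min were thus the 4 lowest and did not overlap with the 8 later ones. At 30 min the treatments lay close together, and at 60 min they spread again, with Block the highest and Block+ActD the lowest.

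The Gria3 subunit pairs with the Gria2 product in many hippocampal receptors. Its probe was detected on all 12 arrays, at intensities from 84.3 to 145, against a lowest detected signal of 64.2 to 79.6 on the arrays. It read 124, 141.3 and 111.3 at 5, 30 and 60 min in Block, and 116.6, 90.9 and 84.3 in Activity. With ActD it read 89.8, 145 and 86.8 in Block+ActD, and 96, 90.7 and 105 in Activity+ActD. The harvests overlapped for Gria3, and so did the 4 treatments, although Block had the highest intensity at 5 min and at 60 min. This order depended on the scale. After normalization to log2 levels, Activity+ActD was highest at 60 min (6.28, against 6.22 in Block). At 30 min Block was then highest (6.78, against 6.59 in Block+ActD). Gria4 encodes a subunit that is prominent in interneurons and in the young brain. Its probe read 49.2 to 66, with detection p-values from 0.127 to 0.687, so that it was detected on 0 of 12 arrays, and the signal that matched a detection p of 0.5 was 44.3 to 54.8. No fold change is therefore given for Gria4. A level near background does not show that the transcript was absent.

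**Figure D1:**
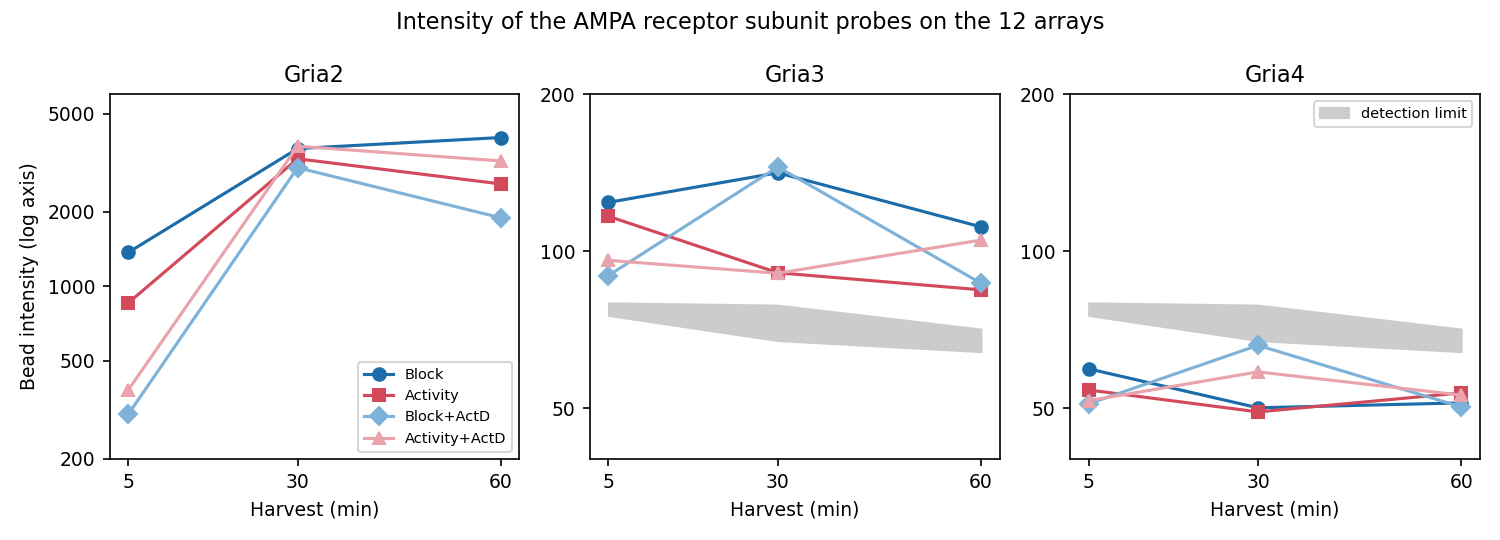
Bead intensity (log axis) of the Gria2, Gria3 and Gria4 probes against harvest time in minutes, with 1 point per array and 1 line per treatment. The grey band is the range, over the 4 arrays of a harvest, of the lowest signal detected at p under 0.01. Gria2 rises from 303.1 to 1369.8 at 5 min to 1892.4 to 3998.6 later, Gria3 lies just above the band and Gria4 lies below it.

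The probes of Gria2 and Gria3 passed the filter on dim probes and were tested among 11792 probes, after background correction, quantile normalization and log2 transformation. On that log2 scale the Gria2 level averaged 9.14 ± 0.93 (SD, n = 4 treatments) at 5 min, 11.80 ± 0.22 at 30 min and 11.45 ± 0.58 at 60 min. The Gria3 level averaged 6.04 ± 0.26, 6.30 ± 0.45 and 5.97 ± 0.33 at these harvests. Ordered by level, the Gria2 arrays ran from Block at 60 min (12.08) and Block at 30 min (12.03), through Activity+ActD and Activity at 30 min (11.84 and 11.81), Activity+ActD at 60 min (11.70), Block+ActD at 30 min (11.49), Activity at 60 min (11.34) and Block+ActD at 60 min (10.70), to Block (10.25), Activity (9.55), Activity+ActD (8.56) and Block+ActD (8.21) at 5 min. The standard deviation expected of a difference between arrays, from the residual spread, was 0.43 for Gria2. Neighbours differed by more than this at 4 steps, from Activity to Block+ActD at 60 min, from there to Block at 5 min, from Block to Activity at 5 min and from Activity to Activity+ActD at 5 min. For Gria3, where the same measure was 0.38, no neighbours in the order differed beyond it.

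The comparison of harvests asked how transcript levels differed between harvest times, across all treatments. Each harvest had cultures and arrays of its own, so a difference between these sets and an effect of time cannot be told apart. The treatments that stood in for replicates do not measure such a difference. Gria2 rose 5.58-fold from 5 min to the mean of 30 and 60 min, by 2.48 ± 0.18 (SE) on the log2 scale (adjusted p = 1.87e-07), and this was the greatest rise of all 11792 probes. Next in order were Pcm1, a protein of the centriolar satellites, at 2.35 ± 0.15, Gabrb1, a GABA-A receptor subunit, at 2.30 ± 0.15 and Hecw1, a ubiquitin ligase, at 2.27 ± 0.19. This contrast moved much of the array, with 49.3% of all probes called at an adjusted p under 0.05 (25.9% higher and 23.4% lower). Of the 2 members tested, 1 was called. Gria3 differed by 0.09 ± 0.17 (adjusted p = 0.676). All 4 arrays of 5 min lay below all 8 later arrays for 12.9% of the probes, Gria2 among them.

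The rise of Gria2 was present under every treatment, with and without ActD. The log2 difference between the mean of the later harvests and 5 min was 1.80 in Block (3.49-fold) and 2.02 in Activity (4.06-fold). It was 2.89 in Block+ActD (7.41-fold) and 3.21 in Activity+ActD (9.27-fold). Among all probes Gria2 took the place 21 from the top in Block, 2 in Activity, 5 in Block+ActD and 1 in Activity+ActD. For Gria3 the same differences were 0.21, -0.43, 0.38 and 0.20. The neuron markers moved in the same direction by less, with median log2 differences of 0.36, 0.42, 0.83 and 0.48, and the microglia markers moved the other way (median -1.66 over the treatments, 7 of 7 called lower). Of the microglia markers, C1qa, C1qb and Tyrobp were not detected on any later array. They passed the filter through 5 min arrays alone, so their fall was built in and its size is set by the floor. The part of the neuron and microglia markers in the Gria2 difference was not tested. Each of these 4 values compares 3 arrays and has no replicate check.

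Between 30 and 60 min neither subunit passed the test, in a contrast that called 6.47% of the probes. Gria2 differed by -0.34 ± 0.21 (adjusted p = 0.435) and Gria3 by -0.33 ± 0.19 (adjusted p = 0.391).

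**Figure D2:**
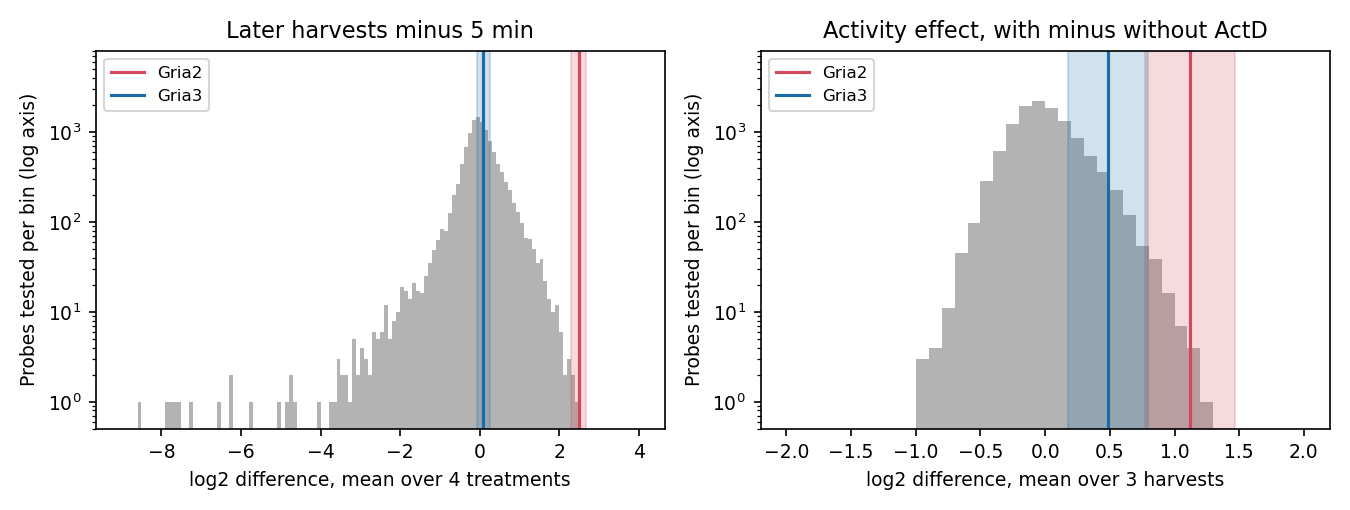
Number of tested probes (log axis) in bins of 0.1 on the log2 scale, for the mean of 30 and 60 min minus 5 min (left) and for the activity effect with ActD minus that without ActD (right). Vertical lines mark Gria2 and Gria3 and shaded bands their standard errors. Gria2 lies at the right end of both distributions, at 2.48 and 1.12, and Gria3 lies at 0.09 and 0.49.

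The comparison of Activity with Block asked whether 5 min of synaptic firing changed the subunit transcripts while transcription was intact, and the same comparison under ActD asked whether they changed when transcription was inhibited. Gria2 was lower in Activity than in Block at every harvest without ActD and higher in Activity+ActD than in Block+ActD at every harvest, but neither difference passed the test across all probes. Without ActD the log2 differences were -0.70 at 5 min, -0.22 at 30 min and -0.74 at 60 min. With ActD they were 0.35, 0.35 and 0.99. Signs of this kind, lower at all 3 harvests without ActD and higher at all 3 with ActD, were seen for 3.54% of the probes.

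**Figure D3:**
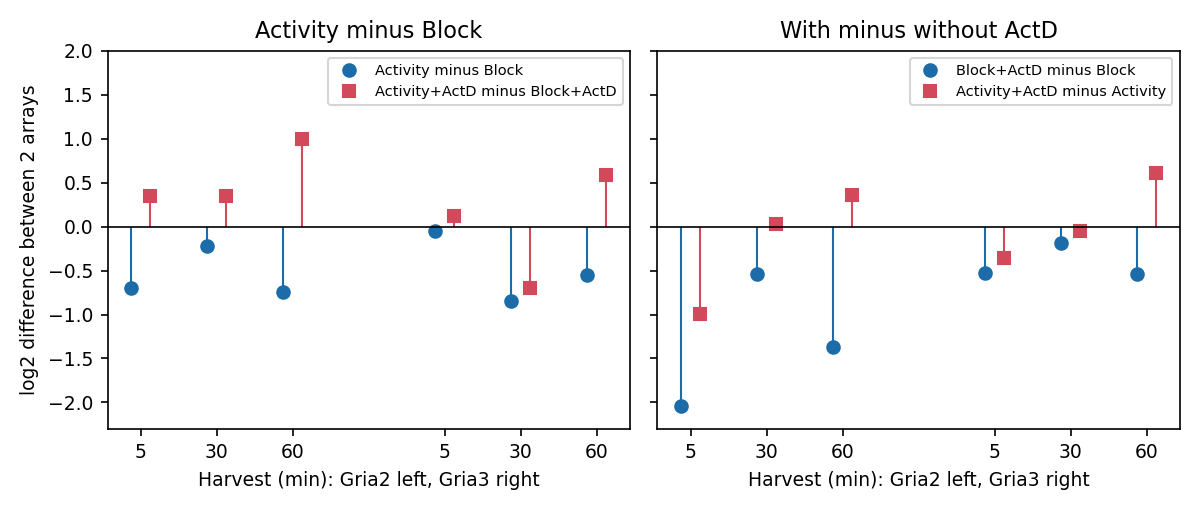
Log2 difference between the arrays of a harvest for Gria2 (left in each panel) and Gria3 (right in each panel), for Activity against Block without and with ActD (left panel) and for cultures with against those without ActD (right panel). Each point is 1 pair of arrays, so there are no error bars. For Gria2 the activity difference lies below 0 without ActD and above 0 with ActD at 5, 30 and 60 min.

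Averaged over the harvests, the activity effect on Gria2 was -0.55 ± 0.25 without ActD (unadjusted p = 0.0417, adjusted p = 0.654). It was 0.56 ± 0.25 with ActD (unadjusted p = 0.0388, adjusted p = 0.996), which was the place 16 from the top among all probes. Of the tested probes 0 were called in either comparison (0%), and 7.5% and 2.87% had an unadjusted p under 0.05. The difference between both effects, the interaction, was 1.12 ± 0.35 for Gria2 (unadjusted p = 0.0066, adjusted p = 0.705) and ranked 5 from the top, in a test that called 0% of the probes and had 6.4% at an unadjusted p under 0.05. By harvest this difference was 1.05, 0.57 and 1.73.

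For Gria3 the activity effect without ActD was -0.48 ± 0.22 (adjusted p = 0.654), with log2 differences of -0.05, -0.84 and -0.55 at 5, 30 and 60 min. Both tested members were thus lower at all 3 harvests, as were 17% of the probes. With ActD Gria3 had no common direction. It differed by 0.12 at 5 min, -0.70 at 30 min and 0.59 at 60 min, with a mean of 0.0029 ± 0.22 (adjusted p = 1) and an interaction of 0.49 ± 0.31 (adjusted p = 0.705).

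Marker transcripts moved with the Gria2 differences at 5 min. In Activity against Block at 5 min, 12 of 16 neuron markers were lower (median -0.28) and 7 of 7 microglia markers higher (median 0.45). In Activity+ActD against Block+ActD at 5 min, 15 of 16 neuron markers were higher (median 0.17) and 7 of 7 microglia markers lower (median -0.43). At 30 min, where the Gria2 differences were -0.22 and 0.35, the neuron marker medians were -0.07 without and -0.09 with ActD (10 of 16 lower), and the microglia marker medians 0.05 and -0.01. At 60 min, where the Gria2 differences were -0.74 and 0.99, the neuron marker medians were -0.07 and 0.09 and the microglia marker medians -0.04 and -0.08. At 30 and 60 min C1qa, C1qb and Tyrobp were not detected on any array. The microglia medians there rest in part on background and cannot show whether those probes moved. The part of the neuron and microglia markers in the Gria2 values at 5 min was not tested.

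Restricted to 30 and 60 min, the activity effect on Gria2 was -0.48 ± 0.15 without ActD (adjusted p = 0.402) and 0.67 ± 0.15 with ActD (adjusted p = 0.643). The interaction at these harvests was 1.15 ± 0.21 (adjusted p = 0.198), and 0% of the probes were called in each of the 3 tests, with 9.24%, 6.11% and 8.94% at an unadjusted p under 0.05. These fits had 3 residual degrees of freedom, and the Block+ActD array of 30 min decided the call. It enters the effect without ActD through the residual spread alone, and leaving it out leaves Block+ActD with 1 array, assumed to vary like the others. Without it the values for Gria2 were -0.48, 0.97 and 1.45. No p-values are given for them, because they rest on 1 Block+ActD array, and other probes were called as well. The effect without ActD was also -0.48 when the 60 min array of Block+ActD was left out, which again left 1 Block+ActD array. For Gria3 the late effects were -0.70 ± 0.25 without ActD (adjusted p = 0.448) and -0.06 ± 0.25 with ActD (adjusted p = 0.99), and the late interaction was 0.64 ± 0.35 (adjusted p = 0.611).

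The methods compared normalized z-scores, and this step was repeated as a description, with a z-fold defined as the difference of the z-scores of 2 arrays over its standard deviation across probes. The methods' threshold was 1.4 reached both with and without ActD and with 1 sign, which 0.627% of 10040 probes met at 5 min. Gria2 went in opposite directions at 5 min, with -3.58 without and 1.82 with ActD, as 3.26% of the probes did past the threshold. At 60 min it again went in opposite directions (-3.60 and 5.02, background 3.68%), and at 30 min its values were -1.04 and 1.52. Gria3 was under the threshold at 5 min (-0.23 and 0.25). It was past it downward both without and with ActD at 30 min (-3.31 and -2.43), as 3.59% of the probes were past it in 1 direction, and went in opposite directions at 60 min (-2.12 and 2.22).

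The comparison of cultures with and without ActD asked what inhibition of transcription did to the transcripts in silenced and in stimulated neurons. It shares its Block and Activity arrays with the activity comparisons above, so the results are not independent of each other. In Block cultures Gria2 was lower with ActD at every harvest, by log2 differences of -2.04 at 5 min (4.12-fold), -0.54 at 30 min and -1.37 at 60 min. The mean was -1.32 ± 0.25, or 2.49-fold lower, with an unadjusted p of 0.000118 and an adjusted p of 0.0897, which missed the threshold. It was the place 4 from the bottom of all probes. This comparison called 0% of the probes and had 23% at an unadjusted p under 0.05, of which those lower with ActD were 12% of all probes. Gria2 passed the test without the Block+ActD array of 30 min (-1.56 ± 0.25, adjusted p = 0.00602), without the 30 min harvest (-1.71 ± 0.25, adjusted p = 0.00983) and, in an alternative added after seeing the data, without the 5 min harvest (-0.96 ± 0.15, adjusted p = 0.0497). These calls were not particular to Gria2. Of 11792 probes, 1327 were called without that array and 908 without the 30 min harvest.

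Gria3 was also lower with ActD in Block cultures, at -0.53, -0.19 and -0.53, but with a mean of -0.42 ± 0.22 it did not pass (adjusted p = 0.264). At 5 min the neuron markers were lower with ActD in 12 of 16 cases (median -0.51) and the microglia markers higher in 7 of 7 (median 0.70). At 60 min these medians were -0.06 and -0.02, beside the Gria2 difference of -1.37. The microglia median at 60 min rests in part on probes that were not detected there. In single pairs of Block cultures, 11.7% of the probes were over 1.5-fold lower with ActD at 5 min, 0.882% at 30 min and 5.5% at 60 min.

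In Activity cultures neither subunit differed beyond the spread between harvests. Gria2 was lower with ActD at 5 min (-0.996), close to equal at 30 min (0.03) and higher at 60 min (0.36), with a mean of -0.20 ± 0.25 (adjusted p = 1). Gria3 differed by -0.35, -0.05 and 0.61, with a mean of 0.07 ± 0.22 (adjusted p = 1). Of the probes 0% were called and 2.48% had an unadjusted p under 0.05.

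The trend of the ActD effect with time, over both stimuli, was 1.05 ± 0.36 per hour on the log2 scale for Gria2 (adjusted p = 0.315), in a test that called 0% of the probes and had 11.2% at an unadjusted p under 0.05. The value for Gria3 was 0.51 ± 0.39 (adjusted p = 0.652). With the later harvests set against 5 min in place of hours, an alternative added after seeing the data, the shift for Gria2 was 1.14 ± 0.18 (adjusted p = 0.000824). That fit called 1097 of 11792 probes, so the call was not particular to Gria2.

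Proteins that partner, move or modify AMPA receptors were read from 4 lists, with the other ionotropic glutamate receptor subunits as a further list. The lists were set against the rise from 5 min to the later harvests, where 25.9% of all probes were called higher, 23.4% lower, and the median over all probes was -0.01. Of 13 tested auxiliary subunits, 5 were higher and 0 lower (median 0.25). Cacng2, which encodes stargazin, the first described transmembrane regulator of AMPA receptors, rose by 0.84 ± 0.08 (adjusted p = 2.35e-06), from intensities of 122.6 to 176 at 5 min to 200.6 to 280.4 later. The secreted noelins Olfm3 and Olfm1, found in native AMPA receptor complexes, rose by 1.58 ± 0.23 (adjusted p = 8.36e-05) and 0.61 ± 0.06 (adjusted p = 2.05e-06). Olfm3 was not detected in Block+ActD or Activity+ActD at 5 min (76.7 and 77.9), so the size of its rise depends on the floor. Nptx2, a secreted pentraxin that clusters AMPA receptors, differed by -0.14 ± 0.14 (adjusted p = 0.423). The probes of Cacng5, Cacng7 and Shisa6 were detected on no array.

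Of 22 tested probes for scaffold and trafficking proteins, 11 were higher and 4 lower (median 0.26). Ppfia2, a liprin of the synaptic scaffold, rose by 1.33 ± 0.21 (adjusted p = 0.000159) and Grip1, which binds the tails of the Gria2 and Gria3 products, by 0.73 ± 0.12 (adjusted p = 0.000289). Epb41l1, a link to the actin cytoskeleton, rose by 0.63 ± 0.07 (adjusted p = 4.79e-06) at the detected probe. Snx27, of the endosomal return pathway, differed by 0.17 ± 0.11 (adjusted p = 0.219). Of 14 kinases and phosphatases that act on the receptor, 9 were higher and 0 lower (median 0.33). Prkacb, a catalytic subunit of protein kinase A, rose by 1.09 ± 0.11 (adjusted p = 4.4e-06), from 2543 to 6137 at 5 min to 6486.8 to 8579.1 later. The calcineurin subunits Ppp3ca and Ppp3cb rose by 0.70 ± 0.13 (adjusted p = 0.000669) and 0.57 ± 0.08 (adjusted p = 3.97e-05).

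Of 8 tested regulators of subunit RNA, 5 were higher and 1 lower (median 0.53). Fmr1, which encodes the RNA-binding protein FMRP, rose by 1.52 ± 0.18 (adjusted p = 1.43e-05), from 94.5 to 231.5 at 5 min to 286.3 to 421.4 later. The splicing regulator Rbfox1 rose by 1.06 ± 0.13 (adjusted p = 1.66e-05) and the neuronal RNA-binding protein gene Elavl3 by 0.69 ± 0.15 (adjusted p = 0.00213). Elavl3 was not detected in Block+ActD at 5 min (69), so the size of its rise depends in part on the floor. Of 6 tested NMDA, kainate and delta receptor subunits, 4 were higher and 0 lower (median 0.38). Grin2b, an NMDA receptor subunit, rose by 1.26 ± 0.12 (adjusted p = 1.8e-06), the kainate receptor subunit Grik2 by 0.88 ± 0.11 (adjusted p = 3.08e-05) and the obligatory NMDA receptor subunit Grin1 by 0.22 ± 0.07 (adjusted p = 0.0216). The Grin2b probe read 60.6 to 78.3 at 5 min and 86 to 112.8 later. At 5 min it was detected in Block alone, so the size of its rise depends on the floor. Of the 16 neuron markers 14 were called higher and 0 lower, with a median of 0.60. Every named difference in these lists was below that of Gria2, as its place at the top of all tested probes requires.

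In the activity and ActD comparisons 0 probes of any list were called, as was so for all probes, and the lists are described by direction alone. The comparison of ActD in Activity cultures is left out here. Without ActD, Activity was lower than Block for 13 of 14 kinases and phosphatases (median -0.23), 15 of 22 scaffold and trafficking probes (median -0.17), 6 of 8 RNA regulators (median -0.17) and 8 of 13 auxiliary subunits (median -0.05). It was lower for 3 of 6 NMDA, kainate and delta receptor subunits (median -0.05), beside 5517 of all 11792 probes (median 0.01). In the same comparison 13 of 16 neuron markers were lower (median -0.13) and 7 of 7 microglia markers higher (median 0.16). Under ActD, Activity was higher than Block for 9 of 14 kinases and phosphatases (median 0.05), 12 of 22 scaffold and trafficking probes (median 0.01) and 5 of 8 RNA regulators (median 0.22). It was higher for 6 of 13 auxiliary subunits (median -0.01), 6 of 6 NMDA, kainate and delta receptor subunits (median 0.08) and 5602 of all probes (median -0.01). Of the markers, 12 of 16 for neurons (median 0.03) and 1 of 7 for microglia (median -0.11) were higher. In Block cultures ActD went with lower levels for 13 of 14 kinases and phosphatases (median -0.23) and 5 of 8 RNA regulators (median -0.41), against 11 of 22 scaffold probes (median -0.02) and 5 of 13 auxiliary subunits (median 0.10), and 4964 of all probes (median 0.04). Here 3 of 6 NMDA, kainate and delta receptor subunits (median -0.01) and 10 of 16 neuron markers (median -0.19) were lower. The microglia markers were higher in 7 of 7 cases (median 0.22). Among these genes Ppp3ca differed by -0.80 ± 0.18 (adjusted p = 0.0917), Fmr1 by -0.82 ± 0.24 (adjusted p = 0.0988) and Ppfia2 by -0.85 ± 0.28 (adjusted p = 0.123). In the interaction 13 of 14 kinases and phosphatases had positive values (median 0.18). So did 16 of 22 scaffold and trafficking probes (median 0.05), 5 of 8 RNA regulators (median 0.51) and 5 of 6 NMDA, kainate and delta receptor subunits (median 0.12), while 5 of 13 auxiliary subunits did (median -0.06) and 5384 of all probes did (median -0.02). Of the markers, 11 of 16 for neurons had positive interaction values (median 0.23) and 0 of 7 for microglia did (median -0.35). The microglia values include later arrays, on which C1qa, C1qb and Tyrobp were not detected. The part of the neuron and microglia markers in the directions of the lists was not tested.

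The transcripts whose pattern was most like that of each subunit were found by Pearson's r over the 12 arrays after subtraction of each harvest's mean, among 8354 named probes of other genes. For Gria2 they were Jakmip2 (r = 0.992), Tdp2 (0.99), Bclaf1 (0.989), Eif3a (0.988) and Pcm1 (0.988), and without the subtraction their r was 0.885 to 0.996. In all, 356 probes (4.26%) had an r above 0.9 with Gria2. On the normalized log2 scale Gria2 and these 5 were highest in Block and lowest in Block+ActD at each harvest, except that Jakmip2 was lowest in Activity at 30 min. All 5 were also higher later than at 5 min, between 0.51 ± 0.12 for Tdp2 and 2.35 ± 0.15 for Pcm1, and their ActD effects in Block cultures ran from -1.09 ± 0.22 for Bclaf1 to -0.58 ± 0.16 for Tdp2. The points share their arrays and the normalization, so the r values are a description.

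For Gria3 the nearest were Map2, a dendritic microtubule protein (r = 0.936), the actin nucleator subunit Actr2 (0.927), the kinase Cdk14 (0.926), the adaptor Apba1 (0.917) and Wdr13 (0.91), and these were the 5 probes with an r above 0.9 (0.0599%). Without the subtraction their r was 0.792, 0.9, 0.922, 0.846 and 0.314. The Gria3 set lay above its harvest mean in Block and below it in Activity at 30 and 60 min. Its activity effects without ActD ran from -1.01 ± 0.28 for Map2 to -0.41 ± 0.15 for Wdr13, and with ActD from -0.10 ± 0.20 for Cdk14 to 0.02 ± 0.28 for Map2. The probes of Apba1 (58.5 to 86) and Wdr13 (51.8 to 80.3) were not detected on most arrays, so their values rest largely on background. Gria2 and Gria3 correlated with each other at r = 0.571 within harvests and 0.38 over all arrays.

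**Figure D4:**
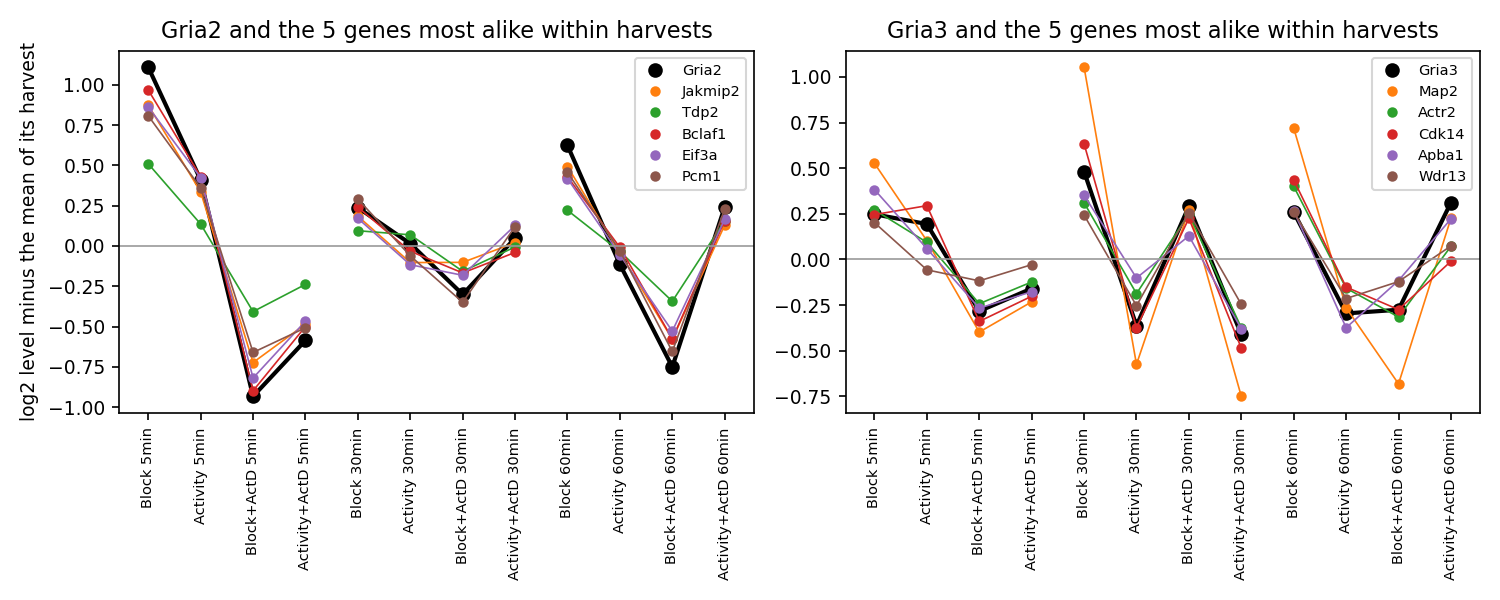
Log2 level minus the mean of its harvest on each of the 12 arrays, for Gria2 (left, black) and Gria3 (right, black) with the 5 named probes most alike to each (colours). Lines join the 4 arrays of a harvest. The Gria2 set is highest in Block and lowest in Block+ActD at every harvest, except Jakmip2 at 30 min, and the Gria3 set is above 0 in Block and below 0 in Activity at 30 and 60 min.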

How the data were processed

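Per the methods, the authors read the arrays with an Illumina BeadStation and averaged the beads of a probe in BeadStudio, whose version is not given in the sources used here. The deposited intensity of a probe was this mean signal on a linear scale, with no background taken off. The deposited detection p-value set that signal against the negative controls of its array. A deposited table of intensities scaled by 1 factor per array (0.882 to 1.12) served as an alternative. Names came from the platform annotation (13793 probes with 1 symbol, 0 with several, 8730 with none), and 13772 of the symbols were in the rat reference GRCr8.

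The neqc function of limma (version 3.58.1, R 4.3.3) corrected the background by normexp, using the detection p-values, and gave quantile-normalized log2 values with an offset of 16. A probe was tested if its detection p was below 0.01 on 2 or more of the 12 arrays. The model of treatment effects included harvest and had 6 residual degrees of freedom. The model of late effects (30 and 60 min) had 3 and that of the ActD trend over hours had 5. Each was fitted by lmFit and moderated by eBayes with its trend option, with two-sided p-values and Benjamini-Hochberg adjustment at 0.05 over all probes. The model of treatment effects was tried on simulated data, for the activity effect without ActD alone. Values are log2 differences ± SE unless stated, and the number of arrays limits their precision. For z-folds, intensities were scaled to equal totals and the log2 values z-scored per array, over probes whose detection p was below 0.1 on every array. The log step, the scoring per array and the number of arrays were choices made here.

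All members were named. Other genes were drawn from the 4 lowest interaction p-values of each list, not all of which are named, and from the 5 highest r with a member. Pcm1, Gabrb1 and Hecw1 were named as next in order after their values were seen. The members and lists were chosen with earlier results of these data known. Alternatives covered scaling, background correction, offset, filter, variance estimate and leaving out arrays or harvests.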

Additional observations from a re-analysis of the deposited data

Results flagged for a closer look

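The activity effect on Gria2 differed in sign between cultures with and without ActD at every harvest. Activity lay below Block at 5, 30 and 60 min without ActD (-0.70, -0.22 and -0.74 on the log2 scale) and above Block at all 3 with ActD (0.35, 0.35 and 0.99). The test of that difference gave 1.12 ± 0.35 (adjusted p = 0.705), so it did not pass, and leaving out single arrays gave 0.82 to 1.44. Signs of this kind were seen for 3.54% of all probes. With 1 array per group, a difference between cultures and an effect of the treatment cannot be told apart.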

How the results depend on the processing

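Gria2 kept its direction and its side of the threshold in 210 of 221 alternative values and Gria3 in 204 of 221. The rise of Gria2 from 5 min to the later harvests was 2.24 to 2.71 under every alternative run (adjusted p 6.95e-08 to 7.36e-05), in tests that called 4740 to 5823 probes. The Gria2 activity effect without ActD ran from -0.83 to -0.25 and the interaction from 0.81 to 1.44, with no call under any alternative. The values that turned their direction all had an adjusted p of at least 0.713. For Gria2 this was the ActD effect in Activity cultures, at 0.20 without the 5 min harvest (an alternative added after seeing the data) and -0.43 to 0.12 when single arrays were left out. For Gria3 the activity effect with ActD turned to -0.032 with equal totals, -0.016 with median scaling, -0.0082 both without background correction and with an offset of 50, and -0.29 without the 60 min harvest, and ran from -0.26 to 0.26 without single arrays. Its ActD effect in Activity cultures was -0.20 without the 60 min harvest and -0.20 to 0.30 without single arrays, its rise to the later harvests -0.0074 to 0.27, and its late activity effect with ActD -0.54 to 0.42.

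The ActD effect in Block cultures, with 0 probes called, gave 1 with robust variance estimation, 908 without the 30 min harvest, 10 without the 5 min harvest (added after seeing the data) and 0 to 1327 without single arrays (1327 without the Block+ActD array of 30 min). Without single arrays the late activity effect called 0 to 182 probes without ActD (179 without that array, 182 without its 60 min counterpart) and 0 to 81 with ActD (43 and 81). The late interaction called 0 to 316 and the ActD trend 0 to 245 (both highest counts without that array). With the later harvests against 5 min in place of hours (added after seeing the data), the trend called 1097. The contrast of 60 with 30 min called 763, and 443 to 825 without single arrays. Probes past the z-fold threshold in 1 direction at 5 min numbered 63, 7 at a threshold of 2 and 114 from the normalized log2 values. The cause of these shifts was not tested. Median scaling moved the median of all probes by 0.21 in the ActD trend, where Gria2 was then 1.44 and Gria3 0.66.

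No paired analysis was possible because all arrays carried replicate number 3, so that the groups compared shared 1 number only and could not be paired by it. Treatments were compared within harvests, with harvest in the model. The signal over background limits what can be seen for Gria3 and Gria4.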
